A study of Mus musculus with 61 samples.

Results

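The genes described here were 10 members of the canonical Wnt pathway's set of target and feedback genes, namely Axin2, Lef1, Sp5, Sp8, Notum, Nkd1, Dkk1, Rnf43, Znrf3 and Lgr5. They were chosen by gene symbol alone, and each of the 10 symbols was found among the 55052 genes of the expression tables. RNA-seq had been carried out on mouse stembryos, which are aggregates of embryonic stem cells that elongate and lay down trunk tissues in a dish (also called gastruloids). There were 61 libraries, of which 16 followed wild-type (wt) stembryos through 8 stages between 72 h and 168 h after aggregation, in duplicate. A further 10 libraries were wild-type controls at 96 h (4 libraries), 120 h (4) and 144 h (2), and 35 came from 8 mutant genotypes at 1 or more of these stages. All 10 genes passed the filter on low values, a mean of at least 1 FPKM (fragments scaled to the length of the transcript and to all mapped fragments) in at least 1 condition, as did 17098 genes in all.

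Wnt ligands bind Frizzled receptors with Lrp co-receptors and thereby stop a complex built on Axin proteins and glycogen synthase kinase from marking beta-catenin for destruction. Beta-catenin then enters the nucleus, joins proteins of the TCF/LEF family on the DNA and switches on target genes, several of which in turn dampen the pathway at the scaffold, at the receptors or outside the cell. In the embryo, Wnt signalling maintains the primitive streak and the neuro-mesodermal progenitors of the tail bud, from which the trunk is built from head to tail. Chiron (CHIR99021), the agonist used here, inhibits glycogen synthase kinase and so acts inside the cell, below the receptors.

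Every stembryo received Chiron from 48 h to 72 h, so that 72 h is the end of the pulse. The medium was replaced in part then and each day after, so that all later stages follow the dilution of the agonist. The stem cells had also been kept with Chiron, PD0325901 and LIF before they were aggregated. The wild type was the EmbryoMax 129/SVEV line. The mutants altered the HoxD cluster and its surroundings, in which CBS stands for a binding site of the architectural protein CTCF. Del(CBS1), Del(CBS2) and Del(CBS4) lacked a single site each, Del(CBS1-2) had lost CBS2 in addition to CBS1, and Del(CBS1-5) lacked the whole series from CBS1 to CBS5. Del(d1-d4) lacked the stretch from Hoxd1 to Hoxd4, Ins(2xCBS-d4d8) carried a cassette with 2 CTCF sites between Hoxd4 and Hoxd8, and Del(sub-TAD1) lacked the regulatory domain beside the anterior end of the cluster together with Mtx2, which a transgene replaced. Lines other than Del(CBS1-5) and Del(sub-TAD1) were edited in the wild-type cells, except Del(CBS1-2), for which CBS2 was deleted in Del(CBS1) cells. Del(CBS1) and Del(CBS1-2) thus share a cell lineage and are not independent lines. The edited lines were grown from picked clones, and the number of clones behind each is not given in the sources used here. Del(CBS1-5) and Del(sub-TAD1) cells were derived from mutant blastocysts of a mixed BL6 and CBA background, so that genotype and strain cannot be told apart in them. Each library pooled several stembryos, and from 108 h on those that had elongated were collected. P-values therefore measure the spread between pools of the same line, which may be technical. In such bulk RNA, fewer cells of a type and less RNA per cell cannot be told apart.

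The depth inferred from the values lay between 14.3 M and 37.0 M fragments (M, mega), the median library having 22.8 M. The libraries fell into 2 sets that the labels do not name. In 28 of them the mitochondrial gene mt-Co3 was at 995 FPKM or more, and in the other 33 at 2.76 or less. The first set held replicates 1 to 3 of the 96 h and 120 h controls together with Del(CBS1), Del(CBS1-2), Del(CBS2), Del(d1-d4), Del(CBS1-5) at 96 h and 120 h and Del(sub-TAD1) at 120 h, and the other held the time course, the fourth replicate of those controls, the 144 h controls and the remaining mutants. A comparison across the sets is given below with its value against wild-type libraries of the same set wherever that value ended the call. For mutants of the second set these libraries include the time course, so that library set and series cannot be told apart there. The 96 h and 120 h controls hold libraries of both sets, so that the spread behind the p-values also includes the difference between the sets. In Del(d1-d4), Hoxd1, Hoxd3 and Hoxd4 were listed at 0 in all 4 libraries, against 27.7 to 30.9 FPKM for Hoxd3 in the 96 h controls, as the label says. Mtx2 stood at 19.2 to 25.3 FPKM in Del(sub-TAD1), which also carries the transgene, so that it checks nothing there. The streak and progenitor markers T, Nkx1-2, Sox2, Cdx2, Fgf8 and Wnt3a summed to between 60.2 and 1452 FPKM over all libraries, and the 5 somite markers went from between 1.28 and 7.16 at 72 h and 84 h to 124 and 281 at 96 h in the time course.

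On build GRCm38 (mm10) the genes lie at these positions. Axin2 spans chr11:108920349-108950783, Rnf43 chr11:87663087-87735539, Notum chr11:120653788-120661175 and Znrf3 chr11:5276324-5444847, all on chromosome 11. Lef1 spans chr3:131110471-131224356, Sp5 chr2:70474923-70477729 and Sp8 chr12:118846329-118852576. Nkd1 spans chr8:88521354-88594884, Dkk1 chr19:30545863-30549665 and Lgr5 chr10:115450311-115587780. Notum, Dkk1, Znrf3 and Lgr5 lie on the reverse strand and the others on the forward strand.

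The promoters are shown because TCF and LEF proteins are known to read letters of the form CTTTGA, and their targets often hold them near the start. The RefSeq table of transcript starts (build GRCm38.p6) gave 13 windows of 250 bases for 7 of the 10 genes, and none for Notum, Znrf3 and Lgr5. CTTTGA, searched on both strands (TCAAAG on the reverse), was present at least once in 4 of the 13 windows and in 2 copies in 3 of them. Of all 32851 windows of the same length, 13.8% held at least 1 copy and 1.37% at least 2. The windows with 2 copies lay before the start of Sp5, of Dkk1 and of an internal start of Lef1, and the window of Axin2 held none. The Sp5 window, chr2:70474673-70474922 on the plus strand, had its copies 204 and 104 bases before the start. In the Lef1 window, chr3:131156044-131156293 on the plus strand and inside the span of the gene, they began 180 and 120 bases before the internal start. In the Dkk1 window, chr19:30549497-30549746 on the minus strand, they began 174 and 117 bases before the start, and 1 window of Sp8 had a single copy 50 bases before its start. The Axin2 window was chr11:108920099-108920348 on the plus strand. Capitals mark the copies of the motif.
Sp5: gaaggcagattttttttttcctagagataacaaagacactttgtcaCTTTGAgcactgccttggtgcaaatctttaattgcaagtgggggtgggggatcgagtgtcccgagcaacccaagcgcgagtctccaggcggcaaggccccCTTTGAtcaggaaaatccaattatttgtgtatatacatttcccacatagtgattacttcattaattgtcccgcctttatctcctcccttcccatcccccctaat
Lef1, internal start: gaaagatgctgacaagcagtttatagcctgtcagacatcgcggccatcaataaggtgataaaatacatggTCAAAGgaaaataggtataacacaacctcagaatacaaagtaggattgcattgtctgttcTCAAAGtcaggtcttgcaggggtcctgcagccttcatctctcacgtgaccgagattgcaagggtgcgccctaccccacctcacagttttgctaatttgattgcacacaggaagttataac
Axin2: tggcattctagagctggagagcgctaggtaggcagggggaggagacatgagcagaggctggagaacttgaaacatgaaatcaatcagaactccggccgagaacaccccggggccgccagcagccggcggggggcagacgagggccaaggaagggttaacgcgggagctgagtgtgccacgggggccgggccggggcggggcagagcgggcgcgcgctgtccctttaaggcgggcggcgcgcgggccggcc
These letters are a description of the windows. They do not show that a protein bound there, and a window without them says nothing about binding elsewhere.

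Over the time course, 9 of the 10 genes differed between stages in a test of any difference (F test of limma on log2(FPKM + 0.1), adjusted over all genes), and Rnf43 did not. The share of all tested genes that passed this test was 61.8%. Between neighbouring stages there were 20 changes among the 70 comparisons of a gene with a step, 14 lower and 6 higher. In single steps between 2.46% and 20.7% of all genes changed. Most of the genes were highest at 72 h to 96 h and lower at 168 h, yet they did not go down together. Dkk1, Axin2 and Znrf3 were highest at the end of the pulse, Sp5 at 84 h, and Lef1, Notum and Nkd1 at 96 h. Of the 10 genes, 6 had their highest stage in common between replicates (Axin2, Lef1, Sp8, Nkd1, Dkk1 and Znrf3).

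**Figure D1:**
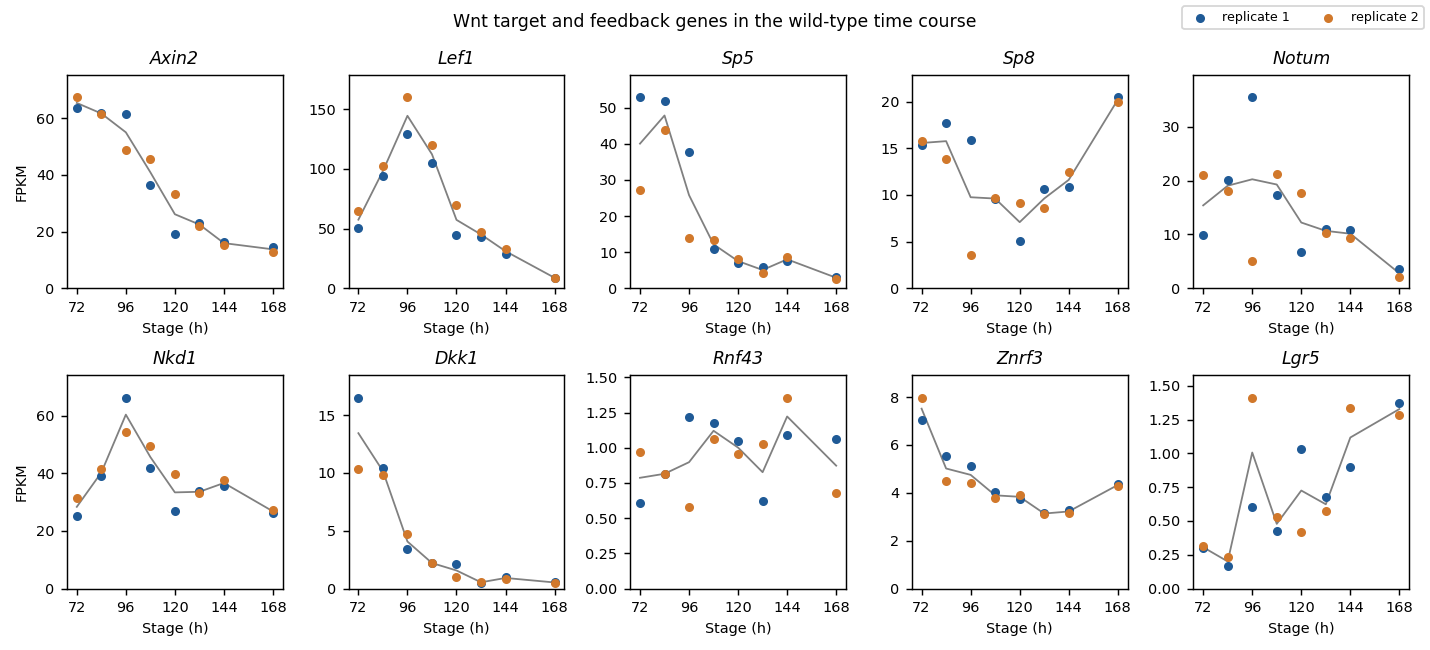
FPKM (linear axis from 0) of each of the 10 genes against hours after aggregation in the wild-type time course, with points for the 2 libraries of a stage and a line through their means. Axin2 and Dkk1 fall from 72 h, Lef1 peaks at 96 h between 129 and 160 FPKM, and Notum and Sp8 show their widest gap between replicates at 96 h.

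Axin2, the scaffold that limits beta-catenin and the most widely used readout of the pathway, fell from 63.4 and 67.3 FPKM at 72 h to 14.6 and 12.8 at 168 h. Its values were 61.8 and 61.6 at 84 h, 61.4 and 48.7 at 96 h, 36.3 and 45.5 at 108 h, 19.1 and 33.1 at 120 h, 22.9 and 22.1 at 132 h and 16.4 and 15.4 at 144 h. The level thus held for a day after the pulse in at least 1 replicate and was 4.76-fold lower in the last stage mean than in the first (adjusted p = 2.6e-18 for any difference). The steps that passed were 96 h to 108 h (log2 change of −0.43 ± 0.13 (SE), adjusted p = 0.035), 108 h to 120 h (−0.69 ± 0.13, adjusted p = 0.00081) and 132 h to 144 h (−0.50 ± 0.13, adjusted p = 0.020). Each of them rested on single libraries. The fall from 96 h to 108 h was −0.26 without the first 96 h replicate (adjusted p = 0.35) and −0.26 without the first 108 h replicate (adjusted p = 0.42), and that from 108 h to 120 h was −0.29 without the first 120 h replicate (adjusted p = 0.17). The fall from 132 h to 144 h did not pass without any 1 of its 4 libraries, with adjusted p from 0.081 to 0.18. The share of all genes that changed in these steps was 9.45% from 96 h to 108 h, 7.06% from 108 h to 120 h and 5.42% from 132 h to 144 h.

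Lef1, the transcription factor that carries beta-catenin to the DNA, rose after the pulse before it fell. It stood at 50.2 and 64.8 FPKM at 72 h, 94.3 and 102.4 at 84 h, 129 and 160 at 96 h and 105 and 120 at 108 h. From there it went to 44.8 and 69.9 at 120 h, 42.7 and 47.5 at 132 h, 28.9 and 33.2 at 144 h and 8.81 and 8.72 at 168 h. Its stage mean was 16.5-fold lower at 168 h than at 96 h, and the libraries of these 2 stages lay far apart. The rise from 72 h to 84 h (0.78 ± 0.16, adjusted p = 0.00065), the fall from 108 h to 120 h (−1.0 ± 0.16, adjusted p = 0.00012) and the fall from 144 h to 168 h (−1.81 ± 0.16, adjusted p = 4.5e-10) passed without any single library. The rise from 84 h to 96 h (0.55 ± 0.16, adjusted p = 0.014) did not pass without the first 84 h replicate (0.49, adjusted p = 0.11) or the other 96 h replicate, replicate 2 (0.39, adjusted p = 0.21). The fall from 132 h to 144 h (−0.54 ± 0.16, adjusted p = 0.047) did not pass without any 1 of its libraries (adjusted p from 0.10 to 0.34). Of all genes, 16.3% changed from 72 h to 84 h, 20.7% from 84 h to 96 h and 9.87% from 144 h to 168 h.

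Sp5 and Sp8 are zinc finger transcription factors of the streak and tail bud that act on Wnt target genes. Sp5 stood at 52.8 and 27.2 FPKM at 72 h, 51.9 and 43.8 at 84 h, 37.8 and 13.8 at 96 h, 10.8 and 13.5 at 108 h and 7.05 and 7.97 at 120 h. It went on at 5.81 and 4.31 at 132 h, 7.43 and 8.58 at 144 h and 3.17 and 2.64 at 168 h. Both replicates were thus below 15 from 108 h on, and the highest stage mean was 16.5-fold the lowest. The fall from 84 h to 96 h passed (−1.06 ± 0.34, adjusted p = 0.025) but was −0.34 without the 96 h replicate 2 (adjusted p = 0.71), and it did not pass without either 84 h library (adjusted p = 0.16 and 0.060). The fall from 144 h to 168 h (−1.43 ± 0.34, adjusted p = 0.0047) did not pass without the 144 h replicate 2 (−1.33, adjusted p = 0.063) or the 168 h replicate 2 (−1.30, adjusted p = 0.072). Sp8 took another course and was highest at the last stage, at 20.4 and 19.95 FPKM, after 15.4 and 15.7 at 72 h and a lowest stage mean of 7.08 at 120 h. Its 96 h libraries stood far apart at 15.9 and 3.59 FPKM, and without the lower of them the fall called from 84 h to 96 h (−1.03 ± 0.31, adjusted p = 0.015) became 0.02 (adjusted p = 1). It did not pass without the 84 h replicate 1 either (−0.86, adjusted p = 0.15).

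Of the inhibitors that act outside the cell, Dkk1, which binds the Lrp co-receptors, had the steepest fall of the 10 genes. It stood at 16.5 and 10.4 FPKM at 72 h, 10.46 and 9.86 at 84 h, 3.38 and 4.75 at 96 h, 2.23 and 2.18 at 108 h and 2.13 and 0.995 at 120 h. From 132 h on its stage means were lower still, with libraries at 0.504 and 0.574 at 132 h, 1.008 and 0.822 at 144 h and 0.594 and 0.456 at 168 h, the lowest of these libraries holding 18.9 fragments. Its stage means spanned 25.6-fold, and the 72 h and 84 h libraries lay above all later ones. A single step passed, from 84 h to 96 h (−1.32 ± 0.44, adjusted p = 0.030), and it did not pass without any 1 of its 4 libraries (adjusted p from 0.052 to 0.19). Notum, a secreted enzyme that strips Wnt ligands of their lipid, stood at 9.82 and 21.0 FPKM at 72 h, 20.1 and 17.97 at 84 h, 35.4 and 5.04 at 96 h and 17.3 and 21.2 at 108 h. It went on at 6.65 and 17.8 at 120 h, 10.998 and 10.3 at 132 h, 10.9 and 9.39 at 144 h and 3.50 and 2.04 at 168 h. Its replicates stood far apart at 96 h and 120 h, and the single step that passed was the fall from 144 h to 168 h (−1.88 ± 0.48, adjusted p = 0.0072). That fall did not pass without the 144 h replicate 1 (−1.77, adjusted p = 0.077) or the 168 h replicate 2 (−1.50, adjusted p = 0.15).

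The gap between the 96 h replicates ran through several of the genes in the same direction. Replicate 1 was above replicate 2 for 7 genes (Notum, Sp8, Sp5, Axin2, Nkd1, Rnf43 and Znrf3) and below it for Lef1, Dkk1 and Lgr5. The same libraries differed in other cell types' markers. The 6 streak and progenitor markers summed to 470 FPKM in replicate 1 and 168 in replicate 2, the 5 somite markers to 124 and 281, the 4 cardiac markers to 0.836 and 24.9, and the 4 endoderm and notochord markers to 3.74 and 16.5. Their part in the levels of the Wnt genes was not tested.

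Nkd1, which binds Dishevelled inside the cell and dampens the signal, rose and fell over a narrow range. It stood at 25.1 and 31.6 FPKM at 72 h, 39.0 and 41.5 at 84 h, 66.2 and 54.5 at 96 h, 41.7 and 49.6 at 108 h and between 26.3 and 39.8 in every later library. Its stage means spanned 2.25-fold. The rises from 72 h to 84 h (0.51 ± 0.14, adjusted p = 0.0081) and to 96 h (0.58 ± 0.14, adjusted p = 0.0022) and the falls from 108 h to 120 h (−0.47 ± 0.14, adjusted p = 0.032) and from 144 h to 168 h (−0.45 ± 0.14, adjusted p = 0.032) passed. Without the 72 h replicate 1 the first rise was 0.35 (adjusted p = 0.20) and without the 84 h replicate 2 it was 0.47 (adjusted p = 0.075), and without the 96 h replicate 1 the next was 0.44 (adjusted p = 0.064). The fall from 108 h to 120 h was −0.35 without the 108 h replicate 2 (adjusted p = 0.30) and −0.19 without the 120 h replicate 1 (adjusted p = 0.67), and that from 144 h to 168 h did not pass without any 1 of its 4 libraries (adjusted p from 0.10 to 0.20).

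The receptor-side genes took different courses. Znrf3, a membrane ubiquitin ligase that clears Frizzled receptors, was highest at 72 h, at 7.06 and 7.97 FPKM, and lay between 3.12 and 5.52 in every later library. It fell from 72 h to 84 h (−0.58 ± 0.13, adjusted p = 0.0016; −0.44 and adjusted p = 0.069 without the 84 h replicate 2) and rose from 144 h to 168 h (0.42 ± 0.13, adjusted p = 0.038), the latter not passing without any 1 of its libraries (adjusted p from 0.12 to 0.21). Rnf43, its close relative with the same role, stayed between 0.580 and 1.36 FPKM, and its stages did not differ by the test (adjusted p = 0.35). Lgr5, a receptor for R-spondins, which protect Frizzled from these ligases, took an opposite course to that of Axin2. It was lowest at 84 h, at 0.167 and 0.234 FPKM from 10.49 to 13.7 fragments, and highest at 168 h, at 1.37 and 1.28. It rose from 84 h to 96 h (1.79 ± 0.42, adjusted p = 0.0018), where its replicates were at 0.601 and 1.41, and without the higher of them, replicate 2, the rise was 1.23 (adjusted p = 0.099). From 120 h to 132 h none of the 10 genes passed in limma, while 2 had an unadjusted p under 0.05 and 2.46% of all genes passed.

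Sp5 and Dkk1 followed each other most closely among the 10 genes, with a Pearson r of 0.929 over the 16 time-course libraries. Axin2 went with Sp5 (r = 0.907), Dkk1 (0.881) and Lef1 (0.805), and against Lgr5 (r = −0.757). These libraries share the trend of 8 stages and are not independent points. Over 12046 genes, those most like Axin2 were Rims4 (r = 0.971), Zfp217 (0.957) and Itpr1 (0.954). Those most like Sp5 were Ripk3 (r = 0.976), the stem cell gene Lin28a (0.967) and the FGF feedback inhibitor Spry4 (0.965), and those most like Dkk1 were Acot9 (0.982), Fah (0.980) and Stap2 (0.980). For Lef1 they were Anxa11 (0.946), Ggta1 (0.941) and Epb41l2 (0.940). Notum ran with the FGF target Etv4 (0.958), the retinoic acid receptor gene Rarg (0.953) and Adar (0.946), and Sp8 with Tmem121 (0.907), Mapk8ip2 (0.898) and Esyt1 (0.897). The highest values were lower for Nkd1 (Ifitm1, 0.875) and for Rnf43 (Lix1, 0.785), against 0.931 for Znrf3 (Mdm2) and 0.925 for Lgr5 (Cyp51).

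The rest of the pathway was followed in lists of genes by role. Among receptors and co-receptors 17 of 17 tested genes differed between stages, among transducers and nuclear factors 12 of 17, among R-spondins 2 of 2, among antagonists 11 of 12 and among other direct targets 13 of 13, beside the 61.8% of all genes given above. The widest ranges were found in the presomitic mesoderm gene Msgn1 and the early streak gene Mixl1. Mixl1 stood at 329 and 160 FPKM at 72 h and at 0.270 and 0.128 at 168 h, and Msgn1 spanned 10.3 on the log2 scale between 84 h and 168 h. Of the antagonists, Cer1, which binds Nodal, BMP and Wnt ligands, was at 66.1 and 187 FPKM at 96 h and at 0.671 and 0.173 at 168 h, and Dkk4 spanned 4.75 on the log2 scale with its highest level at 84 h. Rspo3, an R-spondin gene, went from 60.8 and 49.8 FPKM at 96 h to 5.63 and 5.44 at 168 h. Tcf7, a relative of Lef1, went from 85.1 and 92.7 at 72 h to 17.93 and 17.997 at 168 h. The Frizzled genes Fzd9 and Fzd8 took the opposite course to these, lowest at 84 h and highest at 168 h and 132 h.

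The interval from 96 h to 120 h was covered by the time course and by the controls, which were separate libraries. In the controls 6 of the 10 genes fell and none rose, beside 27.1% of all genes that changed. Sp5 stood at 16.8, 21.6, 23.2 and 16.2 FPKM at 96 h and at 2.55, 2.21, 3.86 and 1.68 at 120 h, so that the stages did not overlap (−2.91 ± 0.24, adjusted p = 7.9e-12). Dkk1 stood at 1.93, 1.84, 4.50 and 1.17 and then at 0.241, 0.272, 1.158 and 0.559 (−1.94 ± 0.31, adjusted p = 7.3e-06). Its stages nearly met, the 120 h replicate 3 coming to just under the lowest 96 h value. Lef1 went from 109, 104, 101 and 155 to 39.5, 38.1, 40.7 and 33.4 (−1.61 ± 0.12, adjusted p = 2.0e-13), Nkd1 from between 37.8 and 43.6 to between 17.4 and 20.7 (−1.09 ± 0.10, adjusted p = 5.1e-11) and Axin2 from between 33.0 and 40.2 to between 17.7 and 20.1 (−0.93 ± 0.09, adjusted p = 5.9e-10). Znrf3 fell by 0.44 ± 0.09 (adjusted p = 0.00038). These 6 falls passed in every alternative and without any single library.

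In the time course 5 of these 6 genes fell over the same interval, beside 15.1% of all genes. The log2 changes were −1.12 ± 0.13 for Axin2 (adjusted p = 7.5e-08), −1.36 ± 0.16 for Lef1 (adjusted p = 1.2e-07) and −0.87 ± 0.14 for Nkd1 (adjusted p = 1.5e-05). Those of Sp5 (−1.59 ± 0.34, adjusted p = 0.00096) and Dkk1 (−1.40 ± 0.44, adjusted p = 0.028) rested on single libraries. Without the 96 h replicate 1 that of Sp5 was −0.87 (adjusted p = 0.12), and that of Dkk1 was −1.16 without the 96 h replicate 2 (adjusted p = 0.21) and −0.88 without the 120 h replicate 2 (adjusted p = 0.35). Znrf3 changed by −0.30 ± 0.13 (adjusted p = 0.13). The difference between the fall in the controls and the fall in the time course passed in 0 of the 10 genes in limma, and 2 had an unadjusted p under 0.05.

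**Figure D2:**
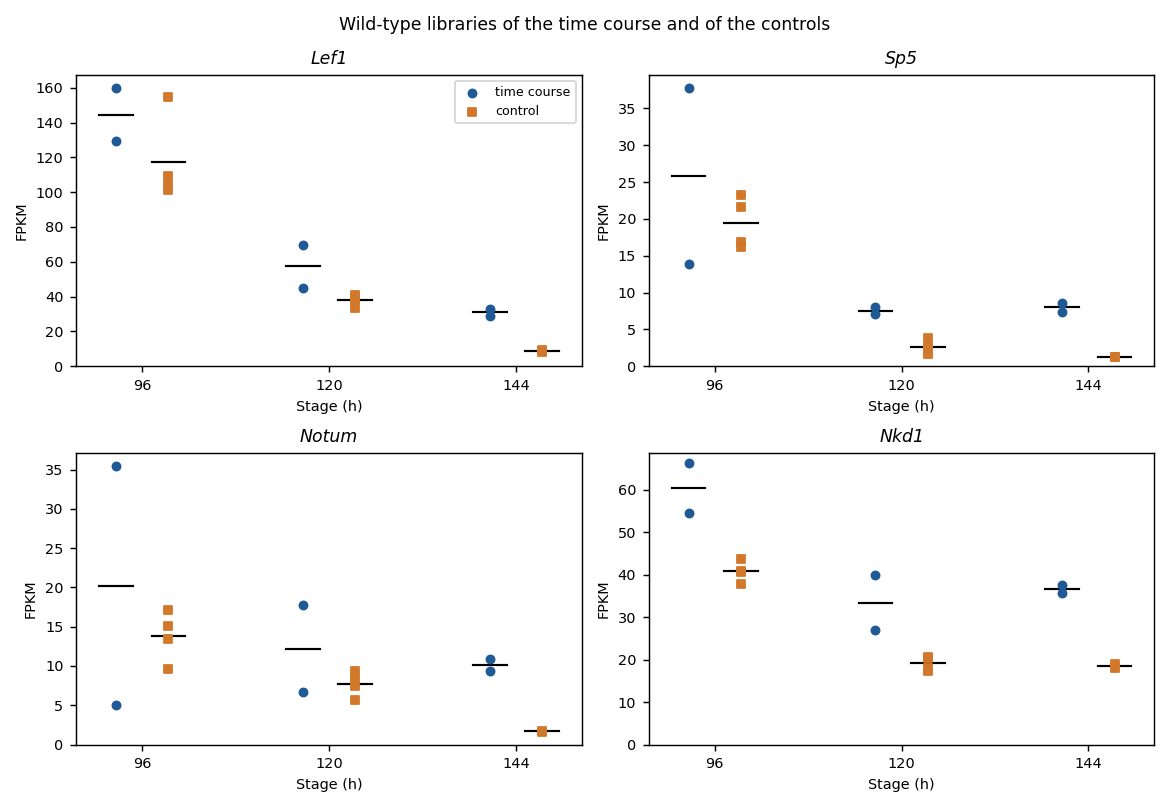
FPKM (linear axis from 0) of Lef1, Sp5, Notum and Nkd1 in the libraries of the controls and of the time course, 1 point per library, for the stages they share (96, 120 and 144 h). At 144 h the control points of the 4 genes lie below those of the time course, for Sp5 at 1.24 and 1.27 against 7.43 and 8.58.

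At a given stage the controls nevertheless stood apart from the time course. Of 30 comparisons of a gene at a stage 14 passed, 13 of them lower in the controls. At 96 h these were Axin2 (−0.60 ± 0.11, adjusted p = 0.0004) and Nkd1 (−0.56 ± 0.12, adjusted p = 0.0011), beside 32.3% of all genes, and against the control of the same library set alone Axin2 did not pass (−0.44, adjusted p = 0.080). At 120 h Sp5 (−1.57 ± 0.30, adjusted p = 0.00039), Nkd1 (−0.77 ± 0.12, adjusted p = 3.6e-05) and Rnf43 (−0.93 ± 0.23, adjusted p = 0.0029) were lower, beside 30.1% of all genes. Axin2 (−0.41, adjusted p = 0.0060) and Lef1 (−0.56, adjusted p = 0.0031) were lower too, but were at −0.02 (adjusted p = 0.97) and −0.24 (adjusted p = 0.31) without the 120 h replicate 2 of the time course. Dkk1 (−1.46, adjusted p = 0.0043) was at −0.94 without its replicate 1 (adjusted p = 0.17). Against the control of the same set alone, neither Axin2 (−0.37, adjusted p = 0.11) nor Dkk1 (−1.25, adjusted p = 0.11) passed at 120 h.

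At 144 h Lef1, Sp5, Notum and Nkd1 were lower in the controls, beside 21.5% of all genes that differed. Lef1 stood at 8.07 and 9.61 FPKM in the controls against 28.9 and 33.2 in the time course (−1.80 ± 0.16, adjusted p = 1.2e-09), Sp5 at 1.24 and 1.27 against 7.43 and 8.58 (−2.58 ± 0.34, adjusted p = 1.5e-06) and Notum at 1.55 and 1.78 against 10.9 and 9.39 (−2.53 ± 0.48, adjusted p = 0.00017). Nkd1 was at 17.9 and 18.9 against 35.6 and 37.6 (−0.99 ± 0.14, adjusted p = 3.2e-06). For each of these genes the stage mean nearest to the control values was that of the last stage of the time course. At 168 h Lef1 was at 8.72 to 8.81 FPKM and Notum at 2.04 to 3.50. Sp5 at 2.64 to 3.17 and Nkd1 at 26.3 to 27.2 still lay above these controls. The difference in Dkk1 (−1.20 ± 0.44, adjusted p = 0.050) did not pass without any 1 of the 4 libraries (adjusted p from 0.11 to 0.23) and was −0.51 with a pseudocount of 1 FPKM in place of 0.1 (adjusted p = 0.17). Znrf3 was higher in the controls (0.48 ± 0.13, adjusted p = 0.0068) and was at 0.45 without the control replicate 2 (adjusted p = 0.065) or the time-course replicate 2 (adjusted p = 0.064). Over the 1000 genes used to place each library on the time course, the 144 h controls came nearest to 154 h to 155 h, so that stage and series cannot be told apart there. The streak and progenitor markers summed to 112 and 111 FPKM in these controls and to 230 and 239 in the time course at 144 h, and their part was not tested.

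The mutants alter the HoxD cluster and none of them targets a Wnt gene. The comparison of each mutant with the controls of its stage thus describes whether the genes keep their levels in these lines. Of 170 comparisons of a gene with a mutant, 31 passed, 15 higher and 16 lower, in 10 of the 17 mutant comparisons. In single mutant comparisons between 0.193% and 40.0% of all genes changed. Among the 31 calls were higher Notum and Sp8 at 96 h. In Del(d1-d4) at 120 h 4 genes fell, beside 1.85% of all genes that changed. Passing too were 3 genes in Del(CBS4) at 120 h, beside 37.5%, and 7 of the 10 in Del(CBS1-5) at 144 h, beside 23.7%. Znrf3 and Lgr5 passed in none of the 17 comparisons. Without each single library in turn, 9 of the 31 calls passed every time, so that the libraries a call depended on are named beside it.

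**Figure D3:**
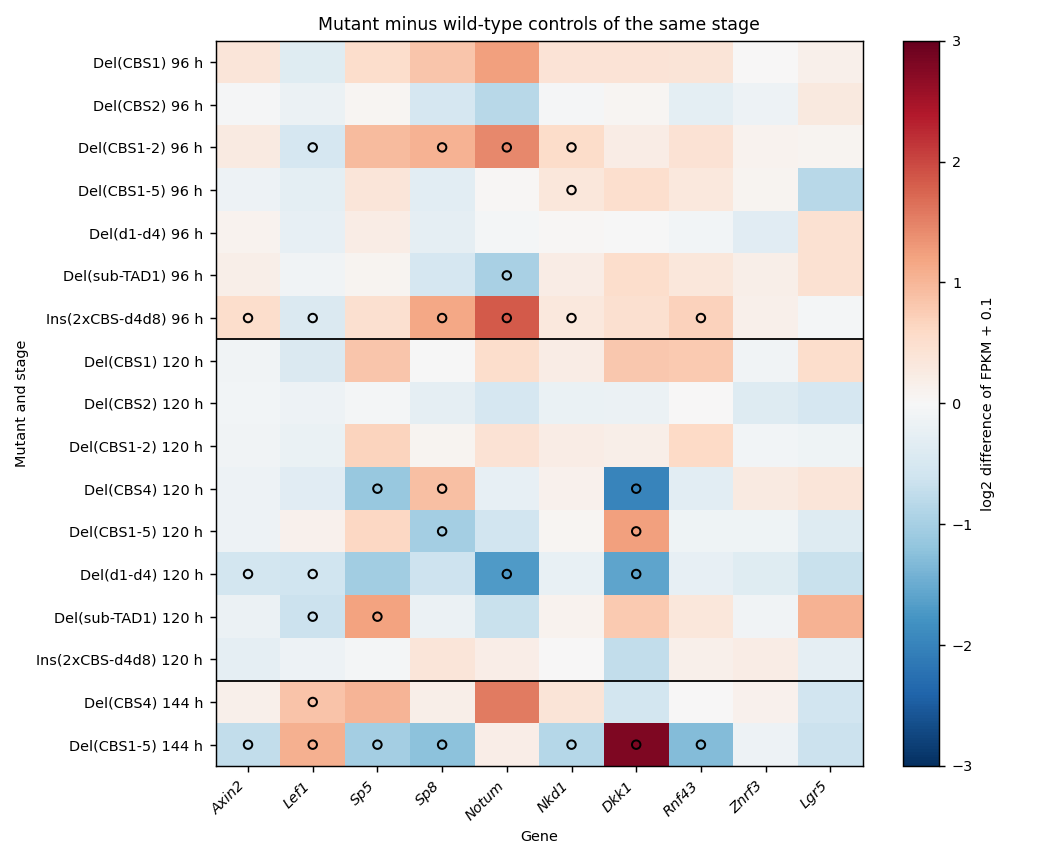
Heat map of the log2 difference between each of the 17 mutant conditions (rows) and the controls of its stage for the 10 genes (columns), in colour from lower to higher, with a circle where the adjusted p was under 0.05. Notum and Sp8 are higher in Del(CBS1), Del(CBS1-2) and Ins(2xCBS-d4d8) at 96 h, with circles in the last 2 of these, and the row of Del(CBS1-5) at 144 h holds 7 circles.

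At 96 h Notum stood above every control in 3 of the mutants, of which Del(CBS1-2) was made from Del(CBS1) cells. In Del(CBS1-5), which lacks CBS1 and CBS2 too, it stood at 13.6 and 14.1 FPKM, within the range of the controls. Notum stood at 51.1 and 46.4 FPKM in Ins(2xCBS-d4d8), 36.5 and 36.8 in Del(CBS1-2) and 31.2 and 32.1 in Del(CBS1), against 13.4, 17.2, 15.03 and 9.64 in the 4 controls. All 6 libraries lay above every control. It rose in Ins(2xCBS-d4d8) (1.84 ± 0.41, adjusted p = 0.0018), also without any single library, and in Del(CBS1-2) (1.43 ± 0.41, adjusted p = 0.038). In Del(CBS1-2) it did not pass without control replicate 4 (1.27, adjusted p = 0.15) or without either mutant library (1.44 and 1.43, adjusted p = 0.27 for both), nor against the controls of the same set (1.27, adjusted p = 0.11). In Del(CBS1) the difference of 1.22 ± 0.41 did not pass (adjusted p = 0.15).

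Sp8 moved with it. It stood at 18.8 and 15.5 FPKM in Ins(2xCBS-d4d8), 15.3 and 15.6 in Del(CBS1-2) and 13.5 and 13.3 in Del(CBS1), against 7.51, 8.17, 8.16 and 6.37 in the controls, again without overlap. It rose in Ins(2xCBS-d4d8) (1.17 ± 0.27, adjusted p = 0.0023; 1.03 and adjusted p = 0.057 without the mutant replicate 1) and in Del(CBS1-2) (1.03 ± 0.27, adjusted p = 0.023). The latter was 0.95 without control replicate 4 (adjusted p = 0.086), did not pass without either mutant library (adjusted p = 0.21 for both) and was 0.95 against controls of the same set (adjusted p = 0.062). In Del(CBS1) the difference of 0.83 ± 0.27 did not pass (adjusted p = 0.13). In the remaining mutants at 96 h Sp8 lay between 4.51 and 6.31 FPKM, under every control. Notum in them ranged from 4.09 to 14.5 FPKM and was lower in Del(sub-TAD1), at 4.09, 8.51 and 9.37 (−0.96 ± 0.36, adjusted p = 0.033, beside 40.0% of all genes). That call was −0.59 without the Del(sub-TAD1) replicate 1 (adjusted p = 0.26) and −0.79 against wild-type libraries of the same set (adjusted p = 0.15), and also ended without control replicate 1, 2 or 3 (adjusted p from 0.059 to 0.097).

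**Figure D4:**
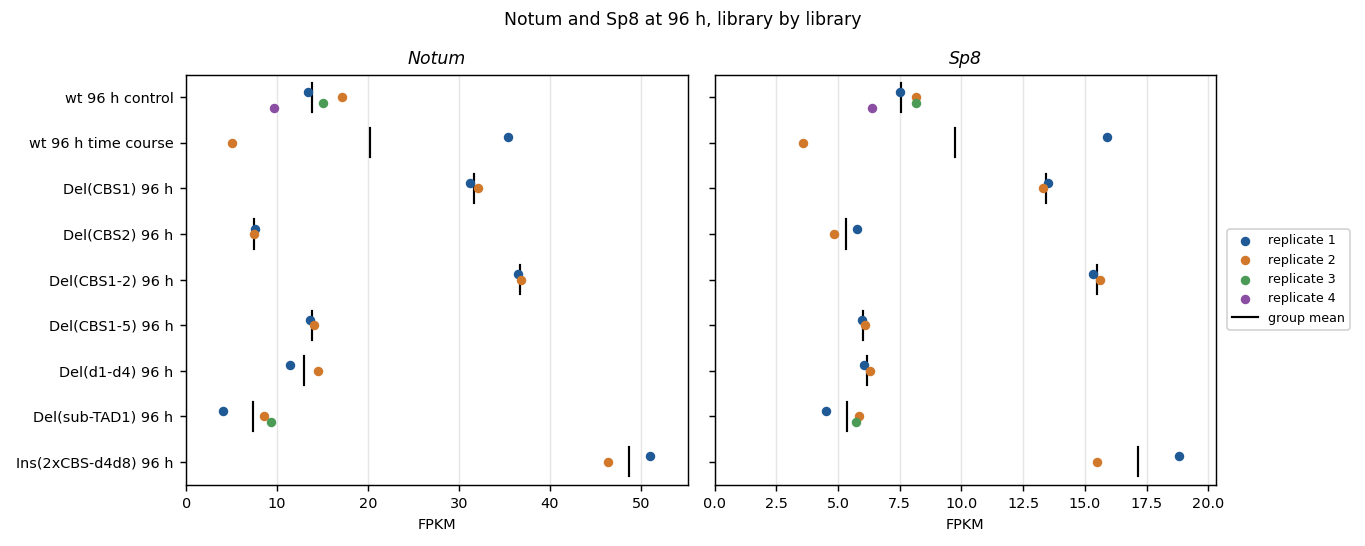
FPKM (linear axis from 0) of Notum and Sp8 in every library at 96 h, 1 point per library, grouped by condition. The 6 libraries of Del(CBS1), Del(CBS1-2) and Ins(2xCBS-d4d8) lie above all 4 controls for both genes, and the 2 time-course libraries lie at 35.4 and 5.04 for Notum.

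The markers of the streak and of neuro-mesodermal progenitors went the same way as Notum and Sp8 in these libraries. Their sum was 563 and 499 FPKM in Ins(2xCBS-d4d8), 507 and 489 in Del(CBS1-2) and 404 and 424 in Del(CBS1), against 252, 292, 365 and 257 in the controls. In Ins(2xCBS-d4d8) 6 of the 6 markers lay above every control, and in Del(CBS1-2) 5 of 6 did. The somite markers summed to 65.5 and 58.6 in Del(CBS1-2) and to 78.2 and 91.1 in Del(CBS1), against 155, 141, 80.7 and 289 in the controls, and to 51.1 and 128 in Ins(2xCBS-d4d8). Placed on the time course, Del(CBS1-2) came nearest to 93 h, Del(CBS1) to 94 h to 95 h, Ins(2xCBS-d4d8) to 93 h to 99 h and the controls to 92 h to 99 h. The part of cell type and stage in the levels of Notum and Sp8 was not tested.

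Other members passed at 96 h in the same mutants. In Ins(2xCBS-d4d8), where 27.9% of all genes changed, Axin2 stood at 52.0 and 51.4 FPKM against 33.0 to 40.2 in the controls (0.52 ± 0.11, adjusted p = 0.0016). Rnf43 stood at 1.23 and 1.19 against 0.637 to 0.830 (0.69 ± 0.23, adjusted p = 0.024), Nkd1 at 50.3 and 50.9 against 37.8 to 43.6 (0.31 ± 0.12, adjusted p = 0.049) and Lef1 at 77.6 and 93.6 against 101 to 155 (−0.44 ± 0.14, adjusted p = 0.020). The wild-type libraries of the same set at 96 h were control replicate 4 and the 2 of the time course, with Axin2 at 40.2, 61.4 and 48.7. Against these 3 the Axin2 difference was 0.07 (adjusted p = 0.79) and that of Nkd1 was −0.06 (adjusted p = 0.84). Of the 3, however, control replicate 4 lay below both mutant libraries in Axin2. Library set and series thus cannot be told apart in these differences. Rnf43 did not pass against the wild-type libraries of the same set (0.59, adjusted p = 0.098), without control replicate 3 (0.65, adjusted p = 0.055) or without either mutant library (0.67, adjusted p = 0.15, and 0.72, adjusted p = 0.10). Lef1 did not pass without control replicate 4 (−0.30, adjusted p = 0.079) or the mutant replicate 1 (−0.30, adjusted p = 0.31). Nkd1 ended without control replicates 1, 3 or 4 or either mutant library (adjusted p from 0.056 to 0.19). Of the 61 other pathway genes 15 passed in this mutant at 96 h, 13 of them higher.

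In Del(CBS1-2) at 96 h, where 4.49% of all genes changed, Nkd1 was higher at 61.2 and 57.7 FPKM (0.55 ± 0.12, adjusted p = 0.0066) and Lef1 lower at 79.9 and 83.4 (−0.50 ± 0.14, adjusted p = 0.037). Both lay outside the range of the controls. Nkd1 was 0.50 and 0.59 without each mutant library (adjusted p = 0.16 and 0.072). Lef1 was −0.36 without control replicate 4 (adjusted p = 0.19), −0.47 and −0.53 without each mutant library (adjusted p = 0.32 and 0.22), and −0.36 against controls of the same set (adjusted p = 0.14). Control replicate 4, at 155 FPKM of Lef1, stood far above the other 3 at 101 to 109. In Del(CBS1) at 96 h none of the 10 genes passed in limma while 5 had an unadjusted p under 0.05, beside 1.23% of all genes, and at 120 h none passed and 4 did so unadjusted, beside 2.10% of all genes. Del(CBS1-2) at 120 h had none and 2, beside 2.35%, and Ins(2xCBS-d4d8) at 120 h none and 1, beside 26.9%.

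Del(CBS2), which had lost a single site of the pair removed in Del(CBS1-2), showed no call in limma at either stage, with 1 gene at an unadjusted p under 0.05 at 96 h and 1 at 120 h. The background was as low, at 0.298% of all genes at 96 h and 0.193% at 120 h. Its 96 h libraries held Notum at 7.52 and 7.50 FPKM and Sp8 at 5.78 and 4.84, both under every control. The differences of −0.84 ± 0.41 and −0.50 ± 0.27 did not pass (adjusted p = 0.33 and 0.38).

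In Del(d1-d4) at 120 h, 4 of the 10 genes fell, beside 1.85% of all genes. Notum stood at 2.42 and 2.17 FPKM against 9.36, 8.46, 7.50 and 5.66 in the controls (−1.69 ± 0.41, adjusted p = 0.023). Dkk1 stood at 0.0994 and 0.0800, from 6 and 5 fragments, against 0.241, 0.272, 1.158 and 0.559 (−1.59 ± 0.39, adjusted p = 0.022). Axin2 was at 13.2 and 12.5 against 17.7 to 20.1 (−0.55 ± 0.11, adjusted p = 0.0067) and Lef1 at 25.6 and 24.001 against 33.4 to 40.7 (−0.61 ± 0.14, adjusted p = 0.017). Of the 10 genes 7 lay below every control, these 4 together with Sp5, Sp8 and Znrf3, which did not pass. The share of all genes that separate in this way is not given here. With a pseudocount of 1 FPKM in place of 0.1, Dkk1 was at −0.48 (adjusted p = 0.32) and Notum at −1.39 (adjusted p = 0.052). Each of these calls, moreover, ended without either mutant library, with adjusted p of 0.20 and 0.32 for Notum, 0.19 and 0.32 for Dkk1, 0.072 and 0.21 for Axin2 and 0.14 and 0.32 for Lef1. Without control replicate 3 Dkk1 was at −1.21 (adjusted p = 0.099) and Lef1 at −0.57 (adjusted p = 0.052), and without control replicate 4 Dkk1 was at −1.52 (adjusted p = 0.058). Sp5 was at 1.39 and 0.935 FPKM against 1.68 to 3.86 and did not pass. At 96 h no gene passed in limma and 1 had an unadjusted p under 0.05, beside 1.19% of all genes.

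Of the 61 other pathway genes, 8 fell in Del(d1-d4) at 120 h and none rose, among them the ligand gene Wnt3a (0.642 and 0.938 FPKM against 3.09 to 5.43 in the controls, −2.28, adjusted p = 3.0e-05). The mesoderm genes Msgn1 (−2.59), Mixl1 (−1.44), Tbx6 (−1.43) and T (−0.96), the trunk gene Cdx1 (−1.19), Tnfrsf19 (−0.97) and Tcf7 (−0.45) were the others. The streak and progenitor markers, a list that shares T and Wnt3a with these targets, summed to 121 and 109 FPKM against 156 to 191. Of its 6 markers 4 lay below every control (Cdx2, Nkx1-2, T and Wnt3a). Placed on the time course, both Del(d1-d4) libraries at 120 h came nearest to 124 h. The controls of the same set came nearest to 116 h to 117 h, and control replicate 4 to 125 h. The part of these markers and of stage in the falls was not tested.

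In Del(CBS4) other members passed at 120 h than at 144 h. At 120 h Sp5 stood at 1.505 and 0.736 FPKM against 2.55, 2.21, 3.86 and 1.68 in the controls (−1.15 ± 0.30, adjusted p = 0.0031) and Sp8 at 10.3 and 12.3 against 5.41, 5.36, 5.50 and 8.01 (0.90 ± 0.27, adjusted p = 0.0087). Without the mutant replicate 2 these became −0.68 (adjusted p = 0.20) and 0.77 (adjusted p = 0.12). Sp8 was at 0.64 against wild-type libraries of the same set (adjusted p = 0.11). Dkk1 stood at 0.0794 and 0.0143, the latter from 1 fragment, and was lower than in every control (−1.99 ± 0.39, adjusted p = 0.00022). With a pseudocount of 1 FPKM in place of 0.1 the Dkk1 difference was −0.54 (adjusted p = 0.059), so that its size depends on that choice. In this comparison 37.5% of all genes changed, so that 3 of 10 members was near the background. Beside them, 24 of the 61 other pathway genes passed, 14 higher and 10 lower. Lower were Wnt3a (−2.06), Msgn1 (−2.55), Tbx6 (−2.21), T (−1.37) and Rspo3 (−0.82), and higher were 9 receptor genes, such as Fzd9 (1.31), Fzd3 (1.19) and Ror2 (0.90).

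The Del(CBS4) libraries at 120 h also differed from their controls in cell type markers. The 5 neural markers summed to 70.4 and 110 FPKM against 9.17 to 27.4, with 4 of 5 above every control, and the 5 somite markers to 316 and 219 against 425 to 497. The 4 endoderm and notochord markers summed to 0.0514 and 0.0688 FPKM, with 2 of the 4 listed at 0 in both libraries. On the time course these libraries came nearest to 113 h and 128 h. The part of these differences was not tested. At 144 h Lef1 was at 16.6 and 15.3 FPKM against 8.07 and 9.61 (0.85 ± 0.16, adjusted p = 0.0023), the only member to pass, beside 2.05% of all genes. Sp5 at 2.84 and 2.46 against 1.24 and 1.27 (1.02 ± 0.34) and Notum at 5.52 and 4.70 against 1.55 and 1.78 (1.56 ± 0.48) did not pass (adjusted p = 0.13 and 0.081). Lef1 did not pass without control replicate 1 (0.72, adjusted p = 0.11) or the mutant replicate 1 (0.79, adjusted p = 0.066). With the time course of that stage among the controls of the same library set, at 28.9 and 33.2 FPKM, the Lef1 difference was −0.05 (adjusted p = 0.88). Of the 61 other pathway genes 8 passed at 144 h, 7 of them higher. Wnt3a (1.34), Tbx6 (1.72), Cdx1 (1.46) and Msgn1, at 0.282 and 0.876 FPKM where both controls were listed at 0, were higher here and lower at 120 h. Fgf8 (1.38), Fzd2 (0.65) and Ptk7 (0.55) were higher too, and Sfrp1 (−0.80) was lower. Of the presomitic markers 5 of 6 lay above both controls, of the somite markers 5 of 5 and of the streak and progenitor markers 5 of 6, with sums of 50.3 and 48.1 against 44.8 and 41.5 FPKM, 216 and 205 against 168 and 163, and 173 and 164 against 112 and 111. Below both controls lay 4 of 4 endothelial, 4 of 4 cardiac, 3 of 4 endoderm and notochord and 3 of 5 neural markers. Of the pluripotency markers 5 of 6 lay above. The share of all genes that separate in this way is not given here. The part of these cell types was not tested. The Del(CBS4) libraries at 144 h came nearest to 136 h to 137 h of the time course and the controls to 154 h to 155 h.

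In Del(CBS1-5) at 144 h 7 of the 10 genes passed, beside 23.7% of all genes. Dkk1 stood at 2.80 and 3.10 FPKM against 0.330 and 0.349 in the controls (2.79 ± 0.44, adjusted p = 9.5e-06), between the levels of 96 h and 108 h in the wild-type time course. Lef1 stood at 18.2 and 19.1 against 8.07 and 9.61 (1.07 ± 0.16, adjusted p = 5.0e-06). Axin2 was lower at 7.31 and 8.10 against 13.0 and 12.6 (−0.73 ± 0.13, adjusted p = 6.8e-05), Nkd1 at 8.70 and 11.8 against 17.9 and 18.9 (−0.85 ± 0.14, adjusted p = 1.4e-05) and Sp8 at 4.09 and 3.48 against 9.58 and 8.58 (−1.24 ± 0.31, adjusted p = 0.0029). Rnf43 was lower at 0.259 and 0.347 against 0.862 and 0.9003 (−1.29 ± 0.27, adjusted p = 0.00039). These 6 calls passed without any single library. Sp5, at 0.600 and 0.528 FPKM against 1.24 and 1.27 (−1.03 ± 0.34, adjusted p = 0.026), did not pass without any 1 of its 4 libraries (adjusted p from 0.076 to 0.14), and was −0.53 with a pseudocount of 1 FPKM (adjusted p = 0.21). Against both the controls and the time course of that stage, which are of the same set, Lef1 was at 0.17 (adjusted p = 0.28).

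Cell type markers moved in the same Del(CBS1-5) libraries at 144 h. The streak and progenitor markers summed to 60.2 and 65.6 FPKM against 112 and 111 in the controls, with 4 of 6 below both controls and 2 above. The 6 presomitic markers summed to 16.1 and 17.7 against 44.8 and 41.5, with 4 of 6 below. All 5 neural markers were below both controls, with sums of 27.2 and 25.4 against 89.1 and 80.8. The 5 somite markers summed to 349 and 357 against 168 and 163, with 2 above, 1 below and 2 overlapping. These libraries came nearest to 139 h of the time course and their controls to 154 h to 155 h. The part of cell type and stage in the 7 differences was not tested.

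Dkk1 was also higher in Del(CBS1-5) at 120 h, at 1.25 and 1.21 FPKM against 0.241, 0.272, 1.158 and 0.559 (1.23 ± 0.39, adjusted p = 0.030), where Sp8 was lower at 3.11 and 2.73 against 5.36 to 8.01 (−1.01 ± 0.27, adjusted p = 0.011), beside 13.3% of all genes. Dkk1 did not pass there without control replicate 1 (0.98, adjusted p = 0.11) or 2 (1.02, adjusted p = 0.097), or without either mutant library (adjusted p = 0.20 and 0.16), and was 0.56 with a pseudocount of 1 FPKM (adjusted p = 0.10). Sp8 did not pass there without either mutant library (−1.10, adjusted p = 0.077, and −0.92, adjusted p = 0.14). At 96 h only Nkd1 passed, at 49.4 and 54.2 FPKM against 37.8 to 43.6 (0.34 ± 0.12, adjusted p = 0.049), beside 14.8% of all genes. It ended without control replicates 1, 3 or 4 or either mutant library (adjusted p from 0.054 to 0.37), and against controls of the same set it was just outside the threshold (0.35, adjusted p = 0.055). Of the 61 other pathway genes 10 passed in Del(CBS1-5) at 96 h (6 higher), 11 at 120 h (2 higher) and 14 at 144 h (6 higher). At 144 h the antagonist gene Dkk2 (1.80), the receptor gene Ror1 (2.05) and Fzd5 (1.21) were higher and Cdx2 (−1.86), Fzd9 (−1.26) and Sfrp2 (−1.06) lower.

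**Figure D5:**
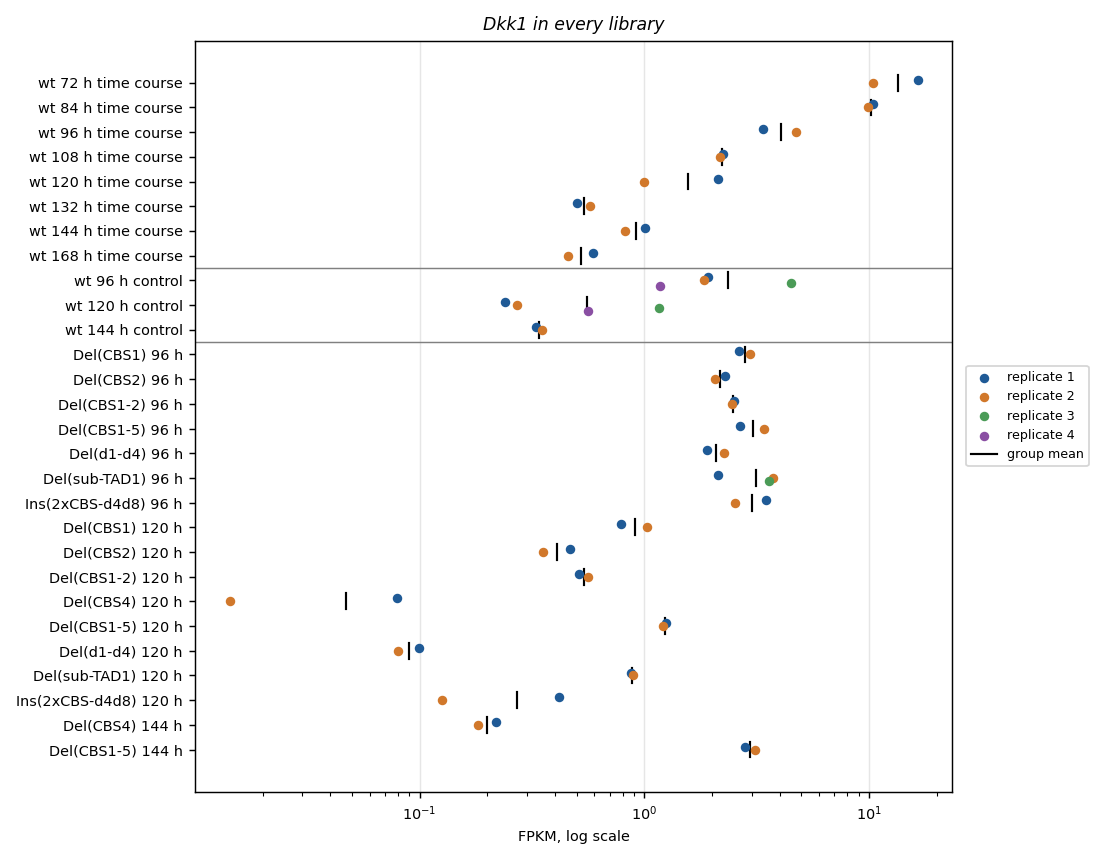
Dkk1 in all 61 libraries in FPKM on a log axis, grouped by condition, 1 point per library. The 72 h and 84 h time-course libraries lie highest at 9.86 to 16.5, Del(CBS1-5) at 144 h lies at 2.80 and 3.10 against 0.330 and 0.349 in its controls, and Del(CBS4) at 120 h lies lowest.

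Dkk1 and the markers of pluripotent cells were high in the same libraries in some conditions and not in others. The 6 pluripotency markers summed to 1303 and 1311 FPKM at 72 h and to 604 and 645 at 84 h in the time course, and to 39.1 to 107 from 96 h on. At 108 h, with sums of 48.1 and 39.1, Dkk1 was still at 2.23 and 2.18 FPKM. In Del(CBS1-5) they summed to 725 and 725 at 96 h, 597 and 680 at 120 h and 862 and 777 at 144 h, against 7.25 and 12.2 in the 144 h controls, where 5 of the 6 markers lay above every control (Dppa5a, Esrrb, Nanog, Pou5f1 and Zfp42) and Klf4 below. At 96 h and 120 h, however, Dkk1 in these libraries stood at 2.67 and 3.42 and at 1.25 and 1.21 FPKM, under the 9.86 FPKM or more of the 84 h time course. Among the controls, replicate 3 stood apart with a sum of 335 at 96 h and 326 at 120 h, against 51.0 to 65.5 and 36.2 to 61.6 in the others. The same replicate held the highest Dkk1 of the controls at both stages, at 4.50 and 1.158 FPKM. In Del(sub-TAD1) at 96 h the sums were 109, 386 and 457, and Dkk1 stood at 2.12, 3.74 and 3.59. In Del(d1-d4) and Del(CBS4) at 120 h, where Dkk1 was lowest, the sums were 8.39 and 6.67, and 17.9 and 13.7. Del(CBS1-2) at 120 h had sums of 5.14 and 4.28, however, with Dkk1 at 0.514 and 0.564, within the range of the controls, and Del(CBS1) at 120 h sums of 3.37 and 5.40 with Dkk1 at 0.787 and 1.03. The part of these cells in the Dkk1 level was not tested.

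Del(sub-TAD1) at 120 h held Lef1 at 23.5 and 25.0 FPKM against 33.4 to 40.7 (−0.64 ± 0.14, adjusted p = 0.0039) and Sp5 at 6.82 and 4.94 against 1.68 to 3.86 (1.202 ± 0.30, adjusted p = 0.011), beside 6.15% of all genes. All 4 endoderm and notochord markers (Sox17, Foxa2, Shh and Noto) lay above every control in these libraries, with sums of 18.9 and 12.0 FPKM against 0.79 to 3.25. The same held at 96 h, where Notum was lower, with sums of 35.7, 27.5 and 21.4 against 1.52 to 6.64. On the time course the 120 h mutant libraries came nearest to 124 h. The 120 h controls of the same set came nearest to 116 h to 117 h, and control replicate 4 to 125 h. The part of these cells and of stage was not tested. Without the mutant replicate 1 at 120 h, Lef1 was at −0.60 (adjusted p = 0.10) and Sp5 at 0.97 (adjusted p = 0.26). Of the other pathway genes, 1 passed at 120 h, Dkk3 (2.42), and 22 passed at 96 h, 19 of them higher, beside the 40.0% of all genes given above for that stage.

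Whether a mutant's effect differed between its stages was tested directly for the 9 pairs of neighbouring stages. Of 90 comparisons of a gene with such a pair 10 passed. In Del(CBS1-5), from 120 h to 144 h, these were Axin2, Lef1, Sp5, Nkd1 and Rnf43, beside 7.07% of all genes, in Del(CBS4) Lef1 and Sp5, beside 8.27%, in Del(sub-TAD1) from 96 h to 120 h Lef1 and Sp5, beside 23.6%, and in Ins(2xCBS-d4d8) Axin2, beside 0.392%. In Del(CBS4) the effect on Sp5 at 120 h minus that at 144 h was −2.17 ± 0.46 (adjusted p = 0.0021; −1.70 and adjusted p = 0.055 without the 120 h replicate 2), and on Lef1 −1.19 ± 0.22 (adjusted p = 0.00043). That of Lef1 and that of Nkd1 in Del(CBS1-5) (0.92 ± 0.18, adjusted p = 0.0012) passed without any single library. The higher Axin2 of Ins(2xCBS-d4d8) at 96 h had no counterpart at 120 h, where it stood at 15.1 and 16.2 FPKM against 17.7 to 20.1 (difference of the effects 0.79 ± 0.16, adjusted p = 0.016), and this did not pass without any 1 of the 4 mutant libraries (adjusted p from 0.050 to 0.12). With wild-type libraries of the same set in each comparison, 4 of the 10 did not pass. These were Lef1 in Del(CBS1-5) (−0.12, adjusted p = 0.73), Lef1 (0.25, adjusted p = 0.41) and Sp5 (−1.02, adjusted p = 0.12) in Del(sub-TAD1) and Axin2 in Ins(2xCBS-d4d8) (0.62, adjusted p = 0.066). In all 4 these wild-type libraries included the time course, so that library set and series cannot be told apart. With a pseudocount of 1 FPKM, Sp5 (1.002, adjusted p = 0.11) and Rnf43 (0.47, adjusted p = 0.088) in Del(CBS1-5) and Sp5 in Del(sub-TAD1) (−0.88, adjusted p = 0.053) did not pass. No member passed in limma for Del(CBS1) (2 at an unadjusted p under 0.05, beside 0.0526% of all genes), Del(CBS1-2) (2, beside 0.175%), Del(CBS1-5) from 96 h to 120 h (1, beside 0.257%), Del(CBS2) (0, beside 0.0117%) and Del(d1-d4) (5, beside 0.0234%). The effects on Notum and Sp8 at 96 h are thus not shown to differ from those at 120 h.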

How the data were processed

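RNA-seq of 61 pooled stembryo libraries in 28 conditions was used, with conditions and replicate numbers taken from the sample titles. The authors trimmed paired reads of 75 bases with cutadapt 1.16, used STAR 2.7.7a for alignment to mm10, retained uniquely placed reads and estimated expression with Cufflinks 2.2.1 on gene models from Ensembl (release 102). What they deposited is Cufflinks' FPKM estimate of every gene, which the authors left scaled to mapped fragments and transcript length. FPKM are not counts, so no count model was used. The library preparation kept strand, but Cufflinks was run at its defaults, which do not use strand, so that reads of a gene and an antisense gene over it cannot be told apart. Of 9 annotated genes that overlap members, the 8 in the table were at most at 0.279 FPKM.

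A linear model of log2(FPKM + 0.1), with a coefficient for each condition, was fitted to the 61 libraries together by limma 3.58.1 (R 4.3.3; no trend, not robust) over the 17098 genes with a mean of at least 1 FPKM in at least 1 condition. P-values are two-sided and were adjusted by Benjamini and Hochberg over all these genes within each comparison, with a threshold of 0.05. Fold changes are differences on this log2 scale, which understates those of low genes. Mutants were compared with the controls of their stage outside the time course. The script was tested on simulated data. Python 3.11.15 with pandas 2.3.3 and numpy 2.4.6 made the summaries. Same-numbered controls of 96 h and 120 h correlated in their deviations from the group means (0.561 to 0.889 in 4 of 4 pairs). At both stages the last replicate is of another library set than the others, so that pairing and set cannot be told apart. A replicate block kept all 6 calls between these controls. Depth was inferred from the FPKM steps that single fragments leave at low levels.

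All 10 members were named, with their values. Of each pathway list, the 2 genes of widest range over the time course and those past the threshold in mutants could be named, and for each member the 3 genes of highest Pearson correlation over the time course. Marker lists, other genes named in the text and the stage estimate are descriptions. The members, lists and comparisons were chosen with earlier results of these data known. Alternatives were the pseudocount, the filter on low values, upper-quartile scaling, a variance trend, a replicate block, controls of the same library set and leaving out replicates. Leaving out single libraries and 2 further settings were added after seeing the data.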

Additional observations from a re-analysis of the deposited data

Results flagged for a closer look

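Among 20 groups of 4 libraries (the 10 genes in the controls at 96 h and at 120 h), 2 had a library whose gap to its nearest neighbour took up more of the group's range than Dixon's 95% critical value, as chance does in about 1 of 20 groups. For Lef1 at 96 h control replicate 4 was highest, with a gap of 0.854 of the range. For Sp8 at 120 h control replicate 4 was highest, with a gap of 0.950 of the range. Both libraries belong to the other library set than replicates 1 to 3, and the part of the set was not tested.

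The effect of a mutant differed between 2 of its stages in 10 cases by limma's test of the difference itself, given here as the log2 effect at the earlier stage minus that at the later one. In Del(CBS1-5), for 120 h and 144 h, it was 0.58 for Axin2, −0.96 for Lef1, 1.65 for Sp5, 0.92 for Nkd1 and 1.159 for Rnf43. In Del(CBS4), for the same stages, it was −1.19 for Lef1 and −2.17 for Sp5. In Del(sub-TAD1), for 96 h and 120 h, it was 0.54 for Lef1 and −1.11 for Sp5, and in Ins(2xCBS-d4d8) it was 0.79 for Axin2. Without each single library in turn, Nkd1 in Del(CBS1-5) and Lef1 in Del(CBS4) passed every time and the other 8 did not. The 120 h libraries of Del(CBS4), the 96 h libraries of Del(sub-TAD1) and all libraries of Ins(2xCBS-d4d8) are of another library set than most of their controls. In Del(CBS1-5) the 120 h and 144 h libraries are of different sets.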

How the results depend on the processing

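Of 1971 values of single calls under alternatives, 1545 kept their direction and passed, 421 kept the direction and did not pass, and 5 reversed. With a fit of the time course or of the mutants and controls alone, 7 changes between neighbouring stages passed in place of 20, and 20 effects that differed between stages in place of 10. Without single replicates or libraries the counts ranged from 8 to 9 of 9 genes over any stages, 7 to 22 of 20 step changes, 4 to 6 of 5 time-course falls, 6 to 9 of 6 control falls, 8 to 18 of 14 differences between controls and time course, 5 to 46 of 31 mutant changes and 0 to 20 of 10 stage differences. The lowest of these, apart from the falls, came from dropping replicate 1 or 2 of all mutants, which leaves 1 library in nearly all of those groups, assumed to vary like the others. The reversed values were Lef1 in Del(CBS4) at 144 h against wild-type libraries of the same set (−0.0532, and −0.0621 with upper-quartile scaling), Nkd1 in Ins(2xCBS-d4d8) at 96 h likewise (−0.0617 and −0.0271), and Sp8 from 84 h to 96 h without the 96 h replicate 2 (0.0245, against −2.09 without replicate 1). Upper-quartile scaling moved the median of all genes by 0.111 to 0.209 in 8 comparisons, those across the library sets. The cause was not tested.

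In the time course, deviations of same-numbered libraries correlated over 0.1 in 2 of 56 pairs, and in 2 of 376 pairs with a mutant. Replicate numbers thus did not pair these libraries. In the 96 h and 120 h controls, pairing cannot be told apart from library set. With a replicate block the counts were 9, 24, 6 (time course), 6 (controls), 17, 38 and 10 in the order above. Depth limits Dkk1, Rnf43 and Lgr5, with as few as 1, 14.7 and 10.49 fragments in a library.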
